A study of Mus musculus with 51 samples.

Results

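The response of microglia to chronic intermittent ethanol (CIE) vapor was followed across all genes of 1 cell preparation of the mouse prefrontal cortex. Libraries were chosen by their labels, which name microglia and either air or ethanol, and this gave 17 of the 51 libraries of the series, 8 control and 9 CIE. Each came from 1 adult male C57BL/6J mouse, and the same 17 mice also gave an astrocyte preparation and a total homogenate. CIE mice spent 16 h per day over 4 weekly cycles in chambers held at 15 to 20 mg ethanol per L of air, after an injection of 1.6 g/kg ethanol with 1 mmol/kg pyrazole. Control mice breathed air in the same kind of chamber and received saline and pyrazole, an inhibitor of alcohol dehydrogenase, so pyrazole was shared by both groups. Mice were perfused with buffer, the tissue was dissociated with papain, astrocytes were removed on beads against ACSA2, and microglia were taken from the rest on beads against CD11b. CD11b is an integrin of microglia but also of border macrophages, monocytes and neutrophils, so these beads select myeloid cells rather than microglia alone.

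Microglia are the resident macrophages of the brain and sense their surroundings through receptors such as P2RY12, CX3CR1 and TREM2. Like other macrophages they respond to type I interferon through transcription factors such as STAT2 and IRF9, which bind short promoter elements and switch on antiviral genes, GTPases and the loading of peptides on MHC class I. Neutrophils are short-lived blood cells filled with granule proteins that are made while the cells mature in the bone marrow. In bulk libraries of this kind fewer cells of a type and less RNA per cell cannot be told apart.

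The labelled cell type was visible in its defining genes. Csf1r, the receptor that microglia need to survive, was at 8312 ± 1440 CPM (counts scaled to a common library size, here over all 51 libraries, SD, n = 17) in the microglia preparation and at 220.3 ± 43.2 (SD, n = 17) in total homogenate. All CPM from here on are scaled over the 17 microglia libraries. Assigned counts per library ranged from 571878 to 6026453. The 6 measures of library quality (total counts, the share of reads in no gene, the share of ambiguous reads, multiply aligned reads, the share of the 50 most abundant genes and the number of genes detected) were compared over all assignments of the mice in an exact permutation test, two-sided, and the adjusted p was between 0.904 and 0.993. Mouse numbers fell into the ranges 03 to 08, 19 to 26 and 35 to 41, which the labels do not name as batches. The 4 libraries of the first range, 2 control and 2 CIE, had scaling factors of 0.813 to 0.875, below all the others, the lowest of which was 0.934.

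Neutrophil genes set some CIE libraries apart. A neutrophil index was formed as the mean log2 CPM of 11 granule and surface genes of neutrophils (Camp, Cd177, Cxcr2, Ltf, Mmp8, Mmp9, Ngp, Retnlg, S100a8, S100a9 and Wfdc21). It lay between 2.66 and 3.89 in the 8 control libraries. In CIE libraries it was 8.16 in mouse 41, 6.40 in mouse 26, 5.85 in mouse 39, 5.52 in mouse 23 and 4.21 in mouse 25, all above every control. In mice 24, 40, 06 and 08 it was 3.85, 3.67, 3.48 and 2.52, not above the highest control. Treatment accounted for 30.4% of the variance of the index. The difference between the CIE and control means was -0.385 among mice 03 to 08, 1.8 among mice 19 to 26 and 2.79 among mice 35 to 41. The index genes together took up 0.668% of the assigned counts of mouse 41 and at most 0.0218% of those of a control library.

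**Figure D1:**
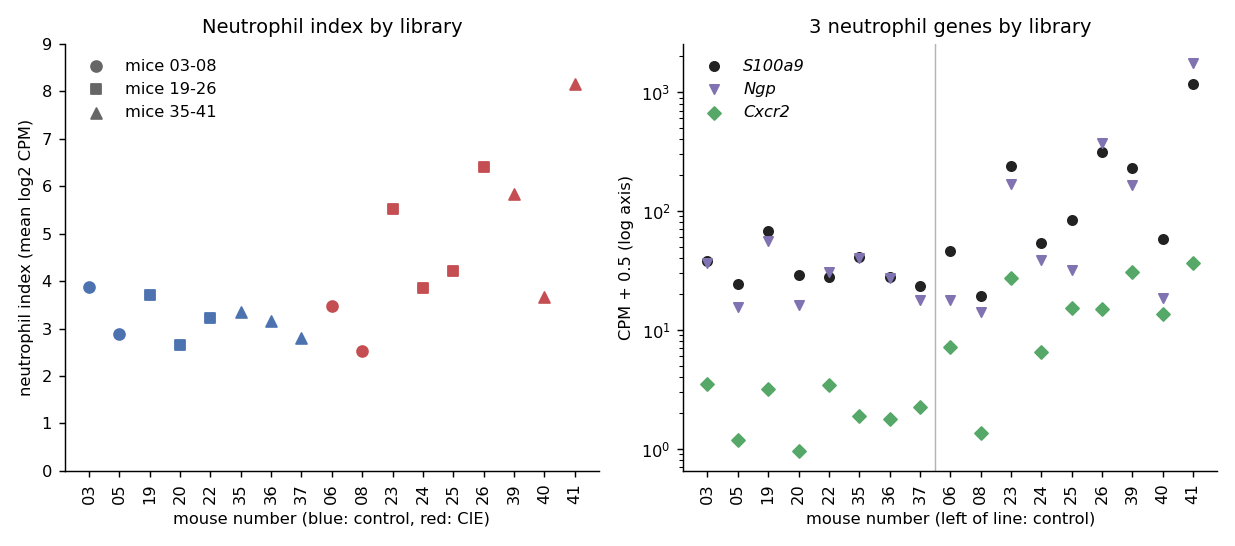
The left panel plots the neutrophil index (mean log2 CPM of 11 genes) of each of the 17 microglia libraries, control in blue and CIE in red, with marker shapes for the ranges of mouse numbers. The right panel plots S100a9, Ngp and Cxcr2 in the same libraries as CPM + 0.5 on a log axis, controls left of the line. Mice 23, 26, 39 and 41 stand above all others in the index, while Cxcr2 is above every control in 8 of 9 CIE libraries.

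Each gene was therefore tested in 3 ways with edgeR's quasi-likelihood test, and every adjusted p below comes from it with Benjamini-Hochberg adjustment over all genes tested. SE stands for the standard error of a fold change on the log2 scale. The first fit compared CIE with control. The second compared them at equal neutrophil index, with the index as a further term, and the third gave the slope of each gene on the index among libraries of 1 treatment. In the first fit 249 of 10761 tested genes were higher in CIE (2.31%) and 124 were lower (1.15%) at an adjusted p under 0.05. The rises were larger than the falls, with a median log2 fold change of 1.04 against -0.504, and 138 rises (55.4%) but 7 falls (5.65%) passed 1 on the log2 scale. Over all tested genes the median was -0.00519. At an unadjusted p under 0.05, 1012 of the 10752 genes other than the index genes were higher and 800 lower. DESeq2 called 406 of these genes higher and 268 lower. Counts of list members at these 2 thresholds are to be read beside these. The groups did not overlap for 50 genes (0.465% of those tested), of which 26 were called higher and 21 lower. Without the 4 CIE mice of highest index (23, 26, 39 and 41), a choice made after seeing the data, 72 genes were higher and 15 lower, and 65 and 13 of these were also called with all mice. Leaving out 1 mouse gave between 127 rises (without control mouse 20) and 436 (without CIE mouse 08), and between 55 and 248 falls without the same mice. Of the calls, 105 rises and 47 falls were made in all 17 such fits.

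At equal neutrophil index 56 genes were higher (0.52%) and 11 were lower (0.102%), and 51 and 9 of these were also called in the first fit. These counts leaned on single mice, with 16 rises and 1 fall without control mouse 35 and 76 and 19 without control mouse 22. At an unadjusted p under 0.05, 693 of the 10752 genes other than the index genes were higher at equal index and 636 lower, and DESeq2 called 123 and 60. Among libraries of 1 treatment, 142 of 10752 genes other than the index genes rose with the index (1.32%) and 17 fell (0.158%). At an unadjusted p under 0.05, 725 rose and 1106 fell, and DESeq2 called 226 rising and 168 falling. The slope rested largely on mouse 41, without which 15 genes rose with the index. Without the 4 mice of highest index the count was 0 in both directions (edgeR), with 271 rising and 180 falling at an unadjusted p under 0.05. That choice takes away most of the spread of the index, with 2.52 to 4.21 left, so the 0 is a description alone. DESeq2 was not run for this setting.

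Apart from the index genes, 240 genes were called higher in CIE, and for 39 of them (16.2%) a rise with the index was called as well. With a higher mean index in CIE, the fit at equal index lowers the values of such genes by its construction, so nothing is read from how far they moved. The slope was called for none of the 124 genes lower in CIE, whose median was -0.504, and -0.427 at equal index, with the same direction in all 124 and 9 called. Of the 249 rises 216 were above 0 in all 3 ranges of mouse numbers, and of the 124 falls 120 were below 0 in all 3. All 56 rises and 11 falls at equal index had the same direction in each range. All these genes were called on the same libraries, which favours agreement between the ranges, so it is no independent support.

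**Figure D2:**
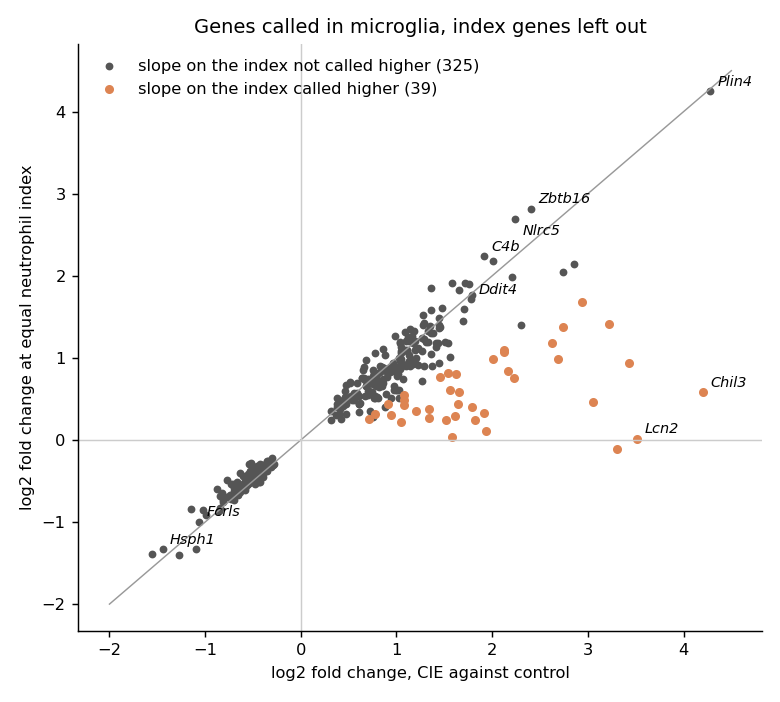
Each point is a gene called in CIE against control microglia, with its log2 fold change on the horizontal axis and its log2 fold change at equal neutrophil index on the vertical axis. The mean index was higher in CIE, so the 39 genes whose rise with the index was called lie below the diagonal by the construction of the fit, and their place is no finding.

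The neutrophil genes come first, so that they can be kept apart from the rest. All 9 tested index genes were called higher in CIE, with a median log2 fold change of 2.95, as were 13 of 17 other tested neutrophil genes, with a median of 2.23. Of all genes 2.31% were called higher. The second list holds 36 genes, of which 17 passed the expression filter, as did 9 of the 11 index genes. A gene near 0 in control libraries can pass this filter through the CIE libraries, so these shares and medians are a description alone. The 4 mice of highest index were picked by the index genes, so the values without them are given for these genes as a description alone, and 0 and 2 of the genes were then called. S100a9, the partner of S100a8 in calprotectin, was at 23 to 66.7 CPM (median 27.8) in control and 18.6 to 1166 (median 83.3) in CIE libraries and rose by 2.89 (SE 0.652, adjusted p = 0.0185). Ngp, a granule protein, was at 15.0 to 55.2 CPM (median 28.5) in control and 13.5 to 1744 (median 38.2) in CIE libraries. Mice 41, 26, 23 and 39 held 1744, 375, 168 and 164 CPM of Ngp, and the other 5 CIE libraries were not above the highest control. Ngp rose by 3.35 (SE 0.882, adjusted p = 0.0392) and was called in 6 of 17 fits without 1 mouse, as were Ltf, lactoferrin, at 3.04 (adjusted p = 0.045), and Cd177, a surface protein, at 2.98 (adjusted p = 0.0485). Without mouse 41 the 3 values were 1.88, 1.77 and 1.85. Without the 4 mice of highest index the log2 fold changes were, again by that choice, -0.20 for Ngp, -0.20 for Ltf and -0.11 for Cd177.

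The ratios of Ngp and of the receptor gene Cxcr2 to S100a9 varied between mice. Cxcr2 (chr1:74153994-74161246, positions from RefSeq on GRCm38.p6), the chemokine receptor that guides neutrophils into tissue, was at 0.447 to 3.01 CPM (median 1.55) in control and 0.845 to 36.1 (median 14.5) in CIE libraries. In 8 of 9 CIE libraries it lay above every control. Cxcr2 rose by 3.38 (SE 0.512, adjusted p = 0.00223) and had a difference of 2.23 (adjusted p = 0.0226) at equal index, where it is itself 1 of the 11 genes of the index and the value is a description. It rested on 31 counts in all control libraries together. Of the 17 fits without 1 mouse it passed the expression filter in 9, was called in all 9, and was not tested in the rest. The count of Ngp per count of S100a9 was 1.5 in mouse 41 and 1.20 in mouse 26, above the highest control value of 1.11, and 0.311 in mouse 40 and 0.375 in mice 06 and 25, below the lowest control value of 0.556. The count of Cxcr2 per count of S100a9 was 0.0159 to 0.107 in control libraries, on few counts of Cxcr2. It was 0.228 in mouse 40, 0.178 in mouse 25, 0.146 in mouse 06, 0.132 in mouse 39, 0.114 in mouse 24 and 0.113 in mouse 23, above every control, and 0.031, 0.0461 and 0.0455 in mice 41, 26 and 08, within the controls.

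Trem1, a receptor that amplifies inflammatory signals in neutrophils and monocytes, was at 0.684 to 6.02 CPM (median 3.57) in control and 6.76 to 66.4 (median 14.9) in CIE libraries, with no overlap between the groups. It rose by 2.74 (SE 0.458, adjusted p = 0.00351) and by 1.38 (adjusted p = 0.0237) at equal index. Chil3, a chitinase-like protein of myeloid cells, was at 3.62 to 10.3 CPM (median 5.56) in control and 7.61 to 486 (median 18.3) in CIE libraries, with 6 of 9 CIE libraries above the controls, and rose by 4.2 (SE 0.879, adjusted p = 0.012). Lcn2, lipocalin 2, rose by 3.52 (adjusted p = 0.0217), Hp, haptoglobin, by 3.43 (adjusted p = 0.00985), Anxa1, annexin A1, by 3.30 (adjusted p = 0.0255), Slfn4 by 3.22 (adjusted p = 0.00638) and complement C3 by 3.06 (adjusted p = 0.0173), and a rise with the index was called for each of these 5 genes. The value of C3 leaned on mouse 41, which held 325 CPM of C3, and was 1.85 without it. Hdc, the enzyme that makes histamine, rose by 2.63 (adjusted p = 0.0062) and Il1r2, the decoy receptor of interleukin-1, by 2.01 (adjusted p = 0.00864).

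Of 5 tested monocyte genes 1, Chil3, was called higher by edgeR, where 2.31% of all genes were, and 1 was called by DESeq2. Chil3 is also in the list of other neutrophil genes and was counted there, so this call is not separate from theirs. At an unadjusted p under 0.05, 4 of the 5 were higher, where 1012 of 10752 genes were. The list's median log2 fold change was 0.856, and 0.234 at equal index, and a rise with the index was called for 2 of the 5. The summed level of all 10 genes of the list, Chil3 among them, was 369 to 722 CPM in control and 323 to 1363 in CIE libraries, with 1 CIE library above every control. Without the 4 mice of highest index the highest CIE sum was 540 CPM. Of 12 border macrophage genes 0 were called by edgeR, with 2 higher and 1 lower at an unadjusted p under 0.05 and 1 called higher by DESeq2, and their summed level was 1383 to 2869 CPM in control and 1285 to 3142 in CIE libraries. The red blood cell genes summed to at most 15.5 CPM, with Hba-a1, Hbb-bs and Hbb-bt at 0. Why these 3 were at 0 was not tested, so the sum is no measure of blood in the preparation. Of 15 cell cycle genes 6 rose with the index, where 1.32% of all genes did. In CIE against control 1 of the 15, Ccnd3, was called, at 0.78 (adjusted p = 0.0358), where 2.31% of all genes were called higher. Ccnd3 was called in 7 of 17 fits without 1 mouse.

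Genes of the interferon response were higher in CIE microglia, also at equal index. Of 44 tested type I interferon-stimulated genes 24 were called higher and none lower (edgeR, none lower at an unadjusted p under 0.05 or by DESeq2), with a median log2 fold change of 0.713, where 2.31% of all genes were called higher. At equal index 17 were called (median 0.713), where 0.52% of all genes were called higher. A slope on the index was called for 0 of the 44 (edgeR, with 2 rising and 12 falling at an unadjusted p under 0.05 and 1 called falling by DESeq2). Of 16 interferon-inducible GTPases and Ifi200 genes 8 were called higher (median 0.828), and 6 at equal index (median 1.00), against the same 2.31% and 0.52% of all genes. Without the 4 mice of highest index 16 of the first list and 6 of the second were called, where 72 of 10836 tested genes were called higher. The median difference between CIE and control over the 44 genes was 0.588 among mice 03 to 08, 0.667 among mice 19 to 26 and 0.591 among mice 35 to 41. Over the 9 index genes it was -0.571, 1.85 and 2.69. Together with the MHC lists, these genes made up 37 of the 249 rises (14.9%) and 27 of the 56 rises at equal index (48.2%), and 0.836% of the genes tested.

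The promoters of these genes were read for the motifs of interferon-responsive factors, in windows of 300 bases (250 before to 50 after a start, RefSeq, GRCm38.p6). The core of the interferon-stimulated response element was searched as GAAANNGAAA on both strands, where N is any base, and the interferon-gamma activated site as TTCNNNGAA, which reads the same on both strands. The response element was found in 14 of the 43 genes higher at equal index that have a window (32.6%), in 20 of 191 genes called higher in the first fit (10.5%), in 1 of 91 called lower (1.10%) and in 3.73% of 8328 tested genes. It was in 17 of 34 interferon-stimulated genes, in 9 of 11 GTPase and Ifi200 genes and in 0 of 8 index genes. The activated site was in 23.3% of the genes higher at equal index and in 8.20% of all tested genes, and the 2 motifs overlapped in 0.12% of tested genes. Over all 32851 windows the shares were 3.44% for the response element and 8.30% for the activated site. A match is a match of letters and not a site.

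For 4 genes higher at equal index, 80 bases of the window upstream of the start are shown with the response element in capitals, as TTTCNNTTTC where it lies on the other strand, to show its place and its repeats. They lie on the plus strand outside the exons of GENCODE M21, at chr3:142530248-142530327 for Gbp7, chr11:58183739-58183818 for Gm12250 (Irgb10), chr19:34583355-34583434 for Ifit3 and chr10:128270248-128270327 for Stat2. Relative to the start of the window's gene model they run from -88 to -9, -104 to -25, -174 to -95 and -250 to -171 in the same order, and that of Ifit3 lies inside the span listed for the gene, which begins at 34583119.
Gbp7: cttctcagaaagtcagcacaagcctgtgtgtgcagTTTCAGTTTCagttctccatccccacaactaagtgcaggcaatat
Gm12250: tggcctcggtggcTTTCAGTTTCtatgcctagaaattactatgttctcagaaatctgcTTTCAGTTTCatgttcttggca
Ifit3: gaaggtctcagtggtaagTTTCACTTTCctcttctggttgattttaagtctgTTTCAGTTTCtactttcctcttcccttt
Stat2: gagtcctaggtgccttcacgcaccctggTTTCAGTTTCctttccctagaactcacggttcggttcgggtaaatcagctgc
The element stands 2 times in the stretches of Gm12250 and Ifit3 and 1 time in those of Gbp7 and Stat2.

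Among the regulators, Irf7, which amplifies interferon production, rose by 1.20 (adjusted p = 0.0053) and had 1.00 (adjusted p = 0.087) at equal index. Nlrc5 (chr8:94434335-94527272), the activator of MHC class I genes, was at 3.90 to 31.1 CPM (median 17.6) in control and 26.8 to 144 (median 67.6) in CIE libraries, and 8 of 9 CIE libraries lay above every control. Nlrc5 rose by 2.24 (SE 0.363, adjusted p = 0.00298) and by 2.69 (adjusted p = 0.000611) at equal index. Ciita, the activator of MHC class II genes, rose by 1.36 (adjusted p = 0.0478) and was called in 5 of 17 fits without 1 mouse.

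Of the effectors, Oasl2 (chr5:114896926-114912245), of the oligoadenylate synthetase family, was at 7.79 to 17.8 CPM (median 12.7) in control and 23.9 to 52.5 (median 32.1) in CIE libraries, with no overlap between the groups. It rose by 1.45 (SE 0.194, adjusted p = 0.000852) and by 1.48 (adjusted p = 0.00721) at equal index. Ifit2 (chr19:34550550-34576534), which binds foreign RNA, was at 8.01 to 17.1 CPM (median 11.6) in control and 11.8 to 51.5 (median 25.1) in CIE libraries, where of the CIE libraries only mouse 23 lay within the controls, and rose by 1.28 (SE 0.229, adjusted p = 0.00484). Mx1, a GTPase that blocks viruses, rose by 1.29 (adjusted p = 0.00438), Ifit3 by 1.12 (adjusted p = 0.00629) and Sp100, a protein of nuclear bodies, by 1.01 (adjusted p = 0.00464). Irgm1 (chr11:48865245-48871420), an immunity-related GTPase, was at 18.5 to 44.3 CPM (median 39.1) in control and 48.2 to 103 (median 67.4) in CIE libraries, with no overlap between the groups, and rose by 0.88 (SE 0.173, adjusted p = 0.00781).

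The guanylate-binding proteins, which attack the vacuoles of intracellular microbes, were also higher. Gbp7 (chr3:142530336-142550151) was at 40.9 to 101 CPM (median 75.9) in control and 79.2 to 179 (median 143) in CIE libraries, with 6 of 9 CIE libraries above every control. It rose by 0.78 (SE 0.184, adjusted p = 0.0246) and by 1.06 (adjusted p = 0.0142) at equal index. Gbp2 rose by 1.36 (adjusted p = 0.0139), Gbp4 by 1.65 (adjusted p = 0.0161), Gbp9 by 0.68 (adjusted p = 0.0368) and Gm12250 by 1.58 (adjusted p = 0.00771). Among the Ifi200 genes, which include DNA sensors, Ifi204 (chr1:173747293-173767069) was at 4.05 to 15.1 CPM (median 11.6) in control and 14.0 to 79.9 (median 34.8) in CIE libraries and rose by 1.79 (SE 0.314, adjusted p = 0.00469), Pyhin1 rose by 1.44 (adjusted p = 0.00223) and Mndal by 1.31 (adjusted p = 0.0062). The Gbp, Ifi200 and Ifit families lie in clusters of similar sequence, where reads can be shared between neighbours or lost as multiply aligned, so values of single members are uncertain to that extent. Gbp6 and Ifit3b had 48 and 49 counts in all control libraries together and 159 and 117 in all CIE libraries, and did not pass the expression filter.

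In antigen presentation, Tap1 (chr17:34187556-34197225), which pumps peptides to MHC class I, was at 38.0 to 61.4 CPM (median 57.6) in control and 77.1 to 240.1 (median 141) in CIE libraries, with no overlap between the groups, and rose by 1.35 (SE 0.203, adjusted p = 0.00223) and by 1.39 (adjusted p = 0.0142) at equal index. H2-M3 rose by 1.18 (adjusted p = 0.00797) and H2-T23 by 0.87 (adjusted p = 0.00864), so that with Nlrc5 4 of 19 tested genes of MHC class I and peptide loading were called, where 2.31% of all genes were called higher, with a median of 0.338. Of 11 genes of MHC class II presentation 1, Ciita, was called higher by edgeR, against the same 2.31%, and 5 were called higher by DESeq2. Cd74, the invariant chain of MHC class II, was at 153 to 404 CPM (median 219.5) in control and 181 to 1417 (median 366) in CIE libraries, with mouse 23 highest, and had 1.37 (adjusted p = 0.0515).

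**Figure D3:**
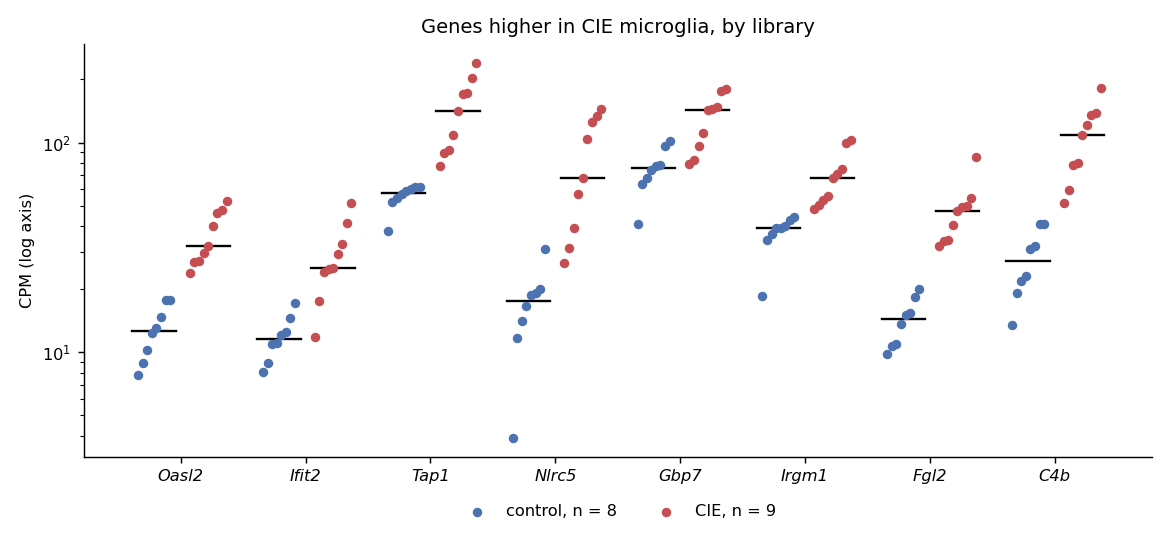
CPM in each of the 17 microglia libraries on a log axis for genes called higher in CIE, control (n = 8) beside CIE (n = 9), with black bars at the medians. For Oasl2, Tap1, Irgm1, Fgl2 and C4b every CIE library lies above every control library.

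Beside the interferon genes, complement C4b and Fgl2, an immunoregulatory and coagulant protein, had the smallest adjusted p at equal index. C4b (chr17:34728139-34743902) was at 13.4 to 41 CPM (median 27.1) in control and 51.4 to 182 (median 108) in CIE libraries, with no overlap between the groups. The lowest CIE values were those of mice 41 and 39, 2 of the mice of highest index. C4b rose by 1.92 (SE 0.257, adjusted p = 0.000852) and by 2.24 (adjusted p = 0.000231) at equal index. Fgl2 (chr5:21372673-21378386) was at 9.83 to 20.1 CPM (median 14.4) in control and 32.2 to 85.3 (median 47.0) in CIE libraries, with no overlap between the groups, and rose by 1.71 (SE 0.202, adjusted p = 0.000224) and by 1.91 (adjusted p = 0.000231) at equal index. Of 16 tested complement genes 3 were called higher (C3, C4b and Itgax), against 2.31% of all genes, and the median of the list was 0.0265.

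Several receptors of myeloid cells were higher too, and 4 of 30 phagocytic receptors and bridging molecules were called higher and 1 lower, where 2.31% and 1.15% of all genes were. Fcgr2b (chr1:170960558-170976071), the inhibitory Fc receptor, was at 150.4 to 189 CPM (median 169) in control and 195 to 240.1 (median 225) in CIE libraries, with no overlap between the groups, and rose by 0.38 (SE 0.0749, adjusted p = 0.00797). Cd300lf rose by 2.86 (adjusted p = 0.00223) and by 2.14 (adjusted p = 0.0256) at equal index, Clec7a, dectin-1, by 0.78 (adjusted p = 0.0255) and Itgax, the integrin CD11c, by 0.86 (adjusted p = 0.0422). Itgax was called in 8 of 17 fits without 1 mouse. Sorl1 (chr9:41964709-42124297), a sorting receptor of the endosome, was at 56.1 to 107 CPM (median 68.9) in control and 117 to 188 (median 139) in CIE libraries, with no overlap between the groups, and rose by 0.92 (SE 0.149, adjusted p = 0.00298). Irg1, the enzyme that makes itaconate, rose by 2.74 (adjusted p = 0.00298) from 49 counts in all control libraries together. It was called in all 9 of the 17 fits without 1 mouse in which it passed the expression filter, and was not tested in the rest.

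Of 29 glucocorticoid-responsive genes 8 were called higher (median 0.339), where 2.31% of all genes were, and 4 at equal index, where 0.52% were. Ddit4 (chr10:59949675-59951770), an inhibitor of mTOR induced by stress and glucocorticoids, was at 28.5 to 48.6 CPM (median 37.1) in control and 72.7 to 194 (median 124) in CIE libraries, with no overlap between the groups. It had the smallest adjusted p of the first fit and rose by 1.78 (SE 0.19, adjusted p = 8.78e-05), and by 1.71 (adjusted p = 0.000611) at equal index. Zbtb16 (chr9:48651797-48836225), a transcription factor induced by glucocorticoids, was at 2.77 to 13.6 CPM (median 4.43) in control and 5.46 to 73.7 (median 18.2) in CIE libraries, with mouse 25 highest, and rose by 2.41 (SE 0.469, adjusted p = 0.00771). Plin4 (chr17:56100587-56109948), a coat protein of lipid droplets, was at 0.894 to 14.4 CPM (median 2.01) in control and 5.84 to 185 (median 16.1) in CIE libraries and had the largest rise among the called genes, 4.28 (SE 0.804, adjusted p = 0.00621). The 4 highest Plin4 values were those of mice 25, 26, 24 and 23, and the difference was 4.84 among mice 19 to 26 against 1.61 and 2.12 in the other ranges. Map3k6, a stress kinase, rose by 2.21 (adjusted p = 0.00273) and the transcription factor Cebpd by 0.42 (adjusted p = 0.0249). The list's median difference was 0.157, 0.448 and 0.0535 in the 3 ranges in rising order. In 17 circadian clock genes the edgeR count was 0, with 1 higher at an unadjusted p under 0.05 and 0 by DESeq2, and in 9 genes of ethanol and acetaldehyde metabolism it was 0, with 2 higher and 0.

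Heat shock proteins and chaperones were the list with the most falls. Of 41 tested 13 were called lower and none higher (none higher at an unadjusted p under 0.05 or by DESeq2), with a median of -0.351, where 1.15% of all genes were called lower, and 35 of 41 were below 0. Hsph1 (chr5:149616843-149636498), the nucleotide exchange factor of HSP70, was at 240.0 to 536 CPM (median 370.4) in control and 58.5 to 216 (median 121) in CIE libraries, with no overlap between the groups. It fell by 1.44 (SE 0.215, adjusted p = 0.00223) and by 1.33 (adjusted p = 0.0226) at equal index. Hspa1a (chr17:34969359-34972156), the inducible HSP70, was at 797 to 2563 CPM (median 1682) in control and 224 to 1265 (median 688) in CIE libraries, with 6 of 9 CIE libraries below every control, and fell by 1.27 (SE 0.292, adjusted p = 0.0206). Hspa1l, close in sequence to Hspa1a, fell by 1.56 (adjusted p = 0.00637), so that values of both are uncertain where reads are shared. Among the co-chaperones Bag3 fell by 0.81 (adjusted p = 0.00753), Stip1 fell by 0.65 (adjusted p = 0.00771) and St13 fell by 0.53 (adjusted p = 0.0139).

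At equal index 1 gene of the list, Hsph1, was called (median of the list -0.328), where 0.102% of all genes were called lower. Without the 4 mice of highest index 4 were, where 15 of 10836 tested genes were called lower. The median difference was -0.225, -0.250 and -0.321 in the 3 ranges in rising order. The heat shock element, searched as GAANNTTCNNGAA and TTCNNGAANNTTC, was in 5 of 34 members with a window (14.7%), in 4.40% of the genes called lower, in 0.524% of those called higher and in 0.612% of all tested genes. Chaperones of the endoplasmic reticulum held 0 calls among 26 tested (edgeR, 5 lower at an unadjusted p under 0.05, 2 called lower by DESeq2). Their median was -0.0885, and 19 of 26 were below 0. Immediate early genes, which respond to tissue dissociation, held 0 calls among 25 (edgeR, 5 lower at an unadjusted p under 0.05, 0 by DESeq2). Of these 25 genes 19 were nevertheless below 0, with a median of -0.195, where 5486 of all 10761 genes tested were below 0. When the fit also held the 3 mouse ranges, edgeR called 4 of the 25 lower, and 276 of all genes. The part of tissue dissociation in the falls was not tested.

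Genes that mark resting microglia were mostly below 0. Of 40 tested homeostatic microglia genes 5 were called lower and none higher (none higher at an unadjusted p under 0.05 or by DESeq2), with a median of -0.268, where 1.15% of all genes were called lower. Of the 40 genes 38 were below 0, as were 5486 of all 10761 genes tested. Fcrls (chr3:87250736-87263765), an Fc receptor-like gene of microglia, was at 1558 to 2111 CPM (median 1595) in control and 253 to 1053 (median 983) in CIE libraries, with no overlap between the groups, and mice 26, 25 and 23 were lowest. It fell by 1.06 (SE 0.213, adjusted p = 0.00864) and had -1.0 (adjusted p = 0.0924) at equal index. Trem2 (chr17:48346401-48352276), a lipid receptor, was at 484 to 789 CPM (median 518) in control and 260.1 to 432 (median 390.0) in CIE libraries, with no overlap between the groups, and fell by 0.55 (SE 0.118, adjusted p = 0.0139). Gpr34, a receptor for lysophosphatidylserine, fell by 0.64 (adjusted p = 0.0195) and Sparc, a matricellular protein, fell by 0.59 (adjusted p = 0.0217).

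The 3 defining genes of microglia were not called. P2ry12 was at 1369 to 2473 CPM (median 1768) in control and 862 to 1603 (median 1339) in CIE libraries and had -0.48 (adjusted p = 0.0704), Cx3cr1 had -0.26 (adjusted p = 0.29) and Csf1r -0.25 (adjusted p = 0.309). DESeq2 called 1 of the 3 lower. At equal index 0 homeostatic genes were called (edgeR, 12 lower at an unadjusted p under 0.05, 2 by DESeq2). The median difference of the homeostatic list was -0.0672 among mice 03 to 08, -0.514 among mice 19 to 26 and -0.147 among mice 35 to 41. Of 25 disease-associated microglia genes 5 were higher (Cd52, Clec7a, Itgax, Lgals3 and Lilrb4a) and 5 lower (Cd9, Ctsd, Ctsl, Timp2 and Trem2), where 2.31% and 1.15% of all genes were. At equal index 1 of the 25, Itgax, was called higher, where 0.52% of all genes were. There 0 were called lower (edgeR, 9 lower at an unadjusted p under 0.05, 3 by DESeq2). A rise with the index was called for 3 of the 25, where it was called for 1.32% of all genes.

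Lysosomal and matrix genes supplied further falls. Of 33 cathepsins and lysosomal genes 5 were called lower (median -0.188, 30 below 0), where 1.15% of all genes were, and at equal index 0 (edgeR, 11 lower at an unadjusted p under 0.05, 2 by DESeq2). Ctsd (chr7:142375910-142387827), the aspartic protease of the lysosome, was at 5049 to 7978 CPM (median 6042) in control and 3505 to 5146 (median 4814) in CIE libraries, and fell by 0.44 (SE 0.116, adjusted p = 0.0387), with a call in 4 of 17 fits without 1 mouse. Hexa, a subunit of hexosaminidase, fell by 0.50 (adjusted p = 0.0236) and Tfeb, a transcription factor of lysosome formation, fell by 0.43 (adjusted p = 0.0435). Tfeb was called in 4 of 17 fits without 1 mouse. Adamts1 (chr16:85793827-85803113), a protease of the matrix, was at 169 to 319 CPM (median 241) in control and 77.2 to 156 (median 144) in CIE libraries, with no overlap between the groups. It fell by 0.86 (SE 0.138, adjusted p = 0.00298) and by 0.86 (adjusted p = 0.0237) at equal index. P4ha1, a collagen prolyl hydroxylase, fell by 0.85 (adjusted p = 0.0109) and Timp2, an inhibitor of metalloproteases, fell by 0.51 (adjusted p = 0.00779).

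Among falls outside these lists, Gimap6 (chr6:48701583-48708244), a GTPase of immune cells, was at 49.7 to 109 CPM (median 74.7) in control and 35.1 to 54.1 (median 42.3) in CIE libraries, with 6 of 9 CIE libraries below every control. It fell by 0.84 (SE 0.131, adjusted p = 0.00239) and by 0.83 (adjusted p = 0.0237) at equal index. Fscn1 (chr5:142960355-142973189), which bundles actin, was at 799.9 to 1094 CPM (median 876) in control and 492 to 685 (median 647) in CIE libraries, with no overlap between the groups, and fell by 0.54 (SE 0.0928, adjusted p = 0.004). Gp9, a platelet glycoprotein, fell by 1.09 (adjusted p = 0.00797), Arrdc4, an arrestin-like protein, fell by 0.82 (adjusted p = 0.00298), Basp1 fell by 0.57 (adjusted p = 0.00358), Hpgd, which degrades prostaglandins, fell by 0.67 (adjusted p = 0.00578) and Mylip, which degrades the LDL receptor, fell by 0.62 (adjusted p = 0.00745).

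**Figure D4:**
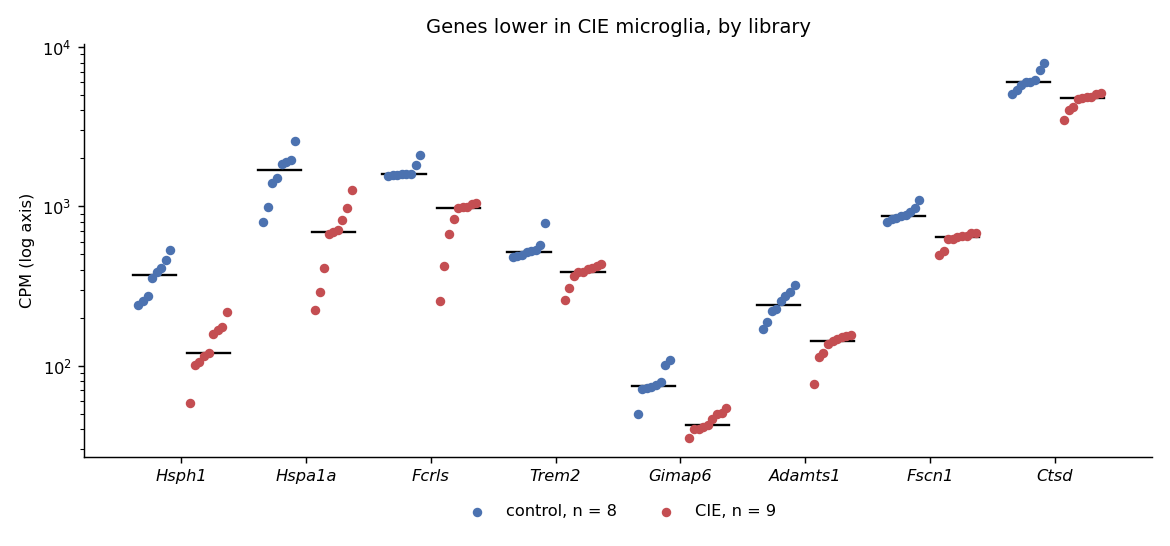
CPM in each of the 17 microglia libraries on a log axis for genes called lower in CIE, control (n = 8) beside CIE (n = 9), with black bars at the medians. Hsph1, Fcrls, Trem2, Adamts1 and Fscn1 do not overlap between the groups, while Hspa1a, Gimap6 and Ctsd do.

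In TGF-beta signalling, which maintains microglia, the ligand gene Tgfb1 (chr7:25687002-25705077) was at 416 to 581 CPM (median 453) in control and 302 to 434 (median 378) in CIE libraries and fell by 0.35 (SE 0.0936, adjusted p = 0.0451), with a call in 2 of 17 fits without 1 mouse. It was the 1 call among 27 genes of TGF-beta ligands, receptors and SMADs (median -0.147), where 1.15% of all genes were called lower. Tgfbrap1 had -0.34 (adjusted p = 0.0653), Smad3 -0.34 (adjusted p = 0.172) and Smad5 -0.17 (adjusted p = 0.63). Nfkbid, an inhibitor of NF-kB, fell by 0.42 (adjusted p = 0.0393) and was the 1 call among 28 cytokines, chemokines and NF-kB feedback genes, against the same 1.15%. It was called in 4 of 17 fits without 1 mouse. Toll-like receptors and adaptors held 0 calls among 24 (edgeR, 4 lower at an unadjusted p under 0.05, 1 by DESeq2). Among other genes that the study names, Cyfip1 had -0.46 (adjusted p = 0.0812), Itgb5 -0.23 (adjusted p = 0.279), Abhd12 -0.29 (adjusted p = 0.0891), Ctsf -0.21 (adjusted p = 0.204) and Cebpb 0.36 (adjusted p = 0.159), and the nucleoside transporter Slc29a1 fell by 0.30 (adjusted p = 0.039), with a call in 5 of 17 fits without 1 mouse. The study named these genes, Cebpb apart, and Tgfbrap1, Smad3 and Smad5 as members of modules of co-expressed genes related to CIE. That is another measure than a test of a single gene, so a missing call here does not bear on it. Cebpb was reported there as up-regulated, with DESeq2. The study chose all these genes on the same samples, so they are no independent evidence of a direction.

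**Figure D5:**
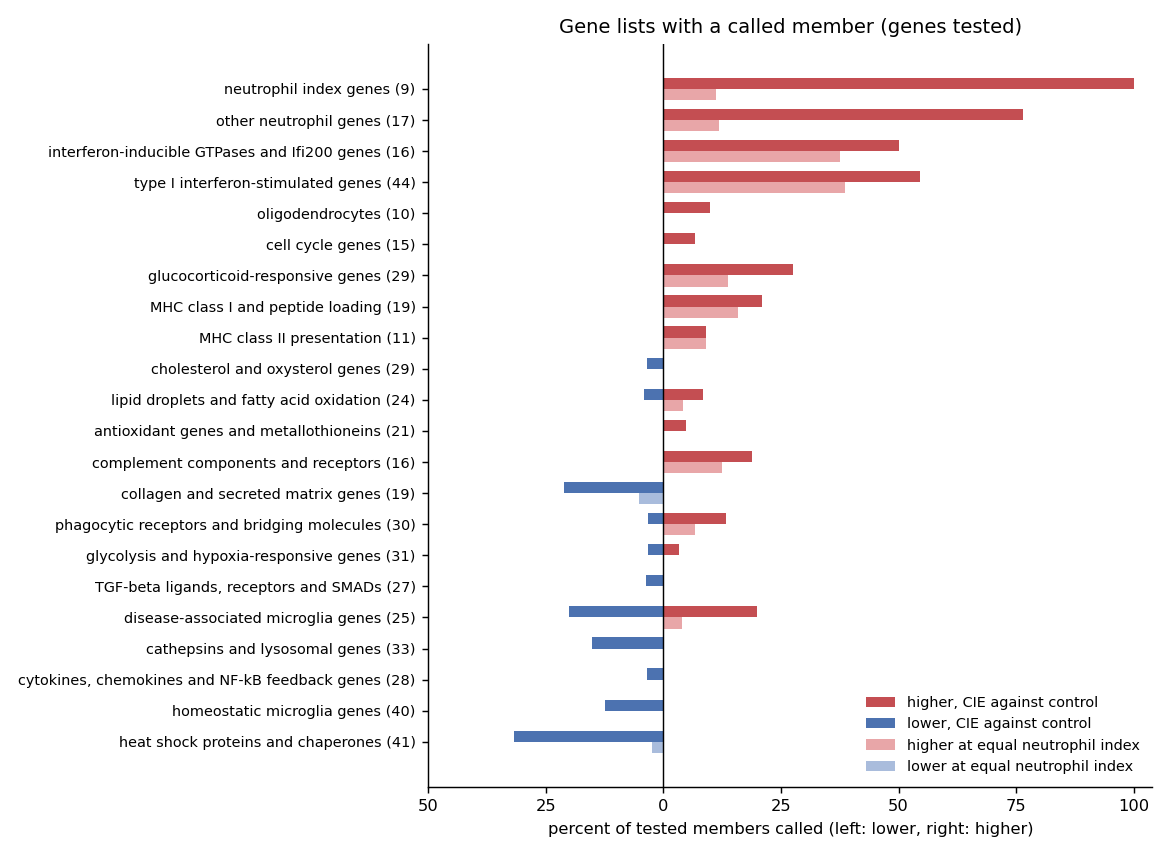
For gene lists with at least 8 tested members and a called gene, the percent of tested members called higher or lower in CIE microglia, in CIE against control and at equal neutrophil index. The interferon lists go from 24 of 44 and 8 of 16 called to 17 and 6, where 2.31% of all genes were called higher and 0.52% at equal index. The 9 neutrophil index genes form the index, so the fit itself lowers their share at equal index, which is no finding.

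Of 10 tested oligodendrocyte genes 1, Mobp, of myelin, was called higher by edgeR, where 2.31% of all genes were, and 4 by DESeq2. Mobp was at 82.3 to 205 CPM (median 156) in control and 142 to 867.6 (median 495) in CIE libraries, rose by 1.70 (SE 0.307, adjusted p = 0.0053) and had 1.45 (adjusted p = 0.0925) at equal index, where 0 of the 10 were called by edgeR (1 higher at an unadjusted p under 0.05, 1 by DESeq2). All 10 genes were above 0 (median 0.707, and 0.426 at equal index), and the summed level was 2150 to 7287 CPM in control and 2356 to 9526 in CIE libraries, with 4 of 9 CIE libraries above every control. The part of oligodendrocyte RNA in the other rises was not tested. In 9 astrocyte, 8 neuron, 10 endothelial and 8 mural cell genes edgeR and DESeq2 called 0, with 1 neuron and 1 endothelial gene higher at an unadjusted p under 0.05. At that threshold 1012 of 10752 genes were higher.

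The response of microglia was set against that of the other preparations of the same mice by interaction contrasts over all 51 libraries. Relative to total homogenate, 81 of 14379 genes had a higher (0.563%) and 38 a lower (0.264%) response in microglia, and relative to astrocytes 59 (0.41%) and 17 (0.118%). With the mouse as a replicate block the counts were 66 and 47, and 59 and 26. Of the 373 genes called in microglia, 39 rises were larger and 19 falls deeper than in homogenate, and 20 and 7 than in astrocytes. Without genes of the neutrophil lists and genes whose rise with the index was called, 33 and 15 larger rises were left. These contrasts hold no term for the neutrophil index, so the neutrophil part of a difference in a single gene was not tested. Mxd1, which opposes MYC, differed by 1.24 (SE 0.185, adjusted p = 0.000263) from homogenate and by 1.05 (adjusted p = 0.00284) from astrocytes. The lipoprotein receptor Vldlr differed by 1.34 (adjusted p = 0.00185) and 1.27 (adjusted p = 0.00644), and the glucose transporter Slc2a3 by 1.55 (adjusted p = 0.00219) and 1.28 (adjusted p = 0.0394). Sepp1, the selenium carrier, differed by -0.78 (adjusted p = 0.00185) and -0.71 (adjusted p = 0.00762), and Creg1 by -0.61 (adjusted p = 0.00581) and -0.70 (adjusted p = 0.00263).

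For the heat shock genes the difference from homogenate was -1.22 (SE 0.271, adjusted p = 0.0147) for Hsph1 and -1.05 (adjusted p = 0.00769) for Bag3, and from astrocytes -0.60 (adjusted p = 0.393) and -0.63 (adjusted p = 0.193). For leading interferon genes no difference from homogenate was called, with 0.41 (SE 0.329, adjusted p = 0.736) for Oasl2 and -0.21 (SE 0.362, adjusted p = 0.932) for Tap1. S100a9 had -0.31 (SE 1.08, adjusted p = 0.987), so the rise of this neutrophil gene is not shown to differ between microglia and homogenate.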

How the data were processed

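Poly(A) RNA was sequenced from 51 libraries of 17 mice, and the 17 microglia libraries (8 control, 9 CIE) are described. Per the labels and the study's methods, the authors used bcl2fastq 2.17, Cutadapt 1.8 for adapters, STAR 2.5.0a on mm10, Picard 1.141 to filter duplicate reads, and HTSeq 0.6.1p1. The deposited values are raw counts per gene for 24421 genes. The annotation and the strand setting of the counting are not given in the sources used here, so a gene and an overlapping antisense gene may share reads. The 5 rows that name no gene were left out of library sizes. In the microglia libraries reads in no gene were 17.9 to 47.5% of the reads assigned to a gene, in no gene or ambiguous. Multiply aligned reads are not part of that total. Filtering of duplicates can lower the counts of abundant genes.

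Counts were tested with edgeR 4.0.16 in R 4.3.3 (TMM, filterByExpr, quasi-likelihood test, threshold 0.05). The authors used DESeq2. The neutrophil index used a prior count of 2 and 11 of 12 planned genes. Promoter windows and coordinates came from RefSeq, and 8328 tested genes had a window. The preparations are paired by mouse, and the deviations of a mouse from its group means correlated between microglia and homogenate with r of -0.0754 to 0.193 (median 0.0465) and between microglia and astrocytes with -0.0979 to 0.304 (median 0.0759). Scripts were tested on simulated data. Depth of 571878 to 6026453 counts limits what can be said of genes near 1 CPM.

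The members, the 39 gene lists and the tests were chosen with earlier results of these data known. Named genes are the 12 largest rises and falls with a mean of at least 5 CPM, the 12 smallest adjusted p per direction in the first fit and at equal index, as many as 4 members per list besides the index and defining genes, genes the study names, and 6 genes per interaction. Called members listed by name in a group, and Stat2, were named after their values were seen. Alternatives were DESeq2 1.42.0, voom of limma 3.58.1 with sample weights, RLE scaling, other filters and indices, the range of mouse numbers as a term, leaving out mice, and the mouse as a replicate block. Mitochondrial and haemoglobin shares were not used. Mitochondrial genes are not listed or at 0, and the haemoglobin genes Hba-a1, Hbb-bs and Hbb-bt were at 0, while Hba-a2 was not. Tables and plots used Python 3.11.15 (numpy 2.4.6, pandas 2.3.3, scipy 1.17.1, matplotlib 3.10.9). Results for some genes are not reported here.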

Additional observations from a re-analysis of the deposited data

Results flagged for a closer look

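In 13 of 76 groups of values the highest or lowest library stood far from its neighbour, by the gap over the range of the group. The cut is set for about 1 in 20 in normally distributed values. CPM are skewed, the groups share mice and the genes were chosen on these data, so the 13 are not read against that rate. Mouse 41 was highest among CIE libraries in S100a9 (gap over range 0.743), Ngp (0.791), Trem1 (0.536) and Chil3 (0.598). Other CIE libraries that stood out were mouse 40 in Fgl2 (0.58), mouse 25 in Zbtb16 (0.499) and mouse 26 in Ifi204 (0.574). Among controls mouse 19 was highest in Cd74 (0.647), S100a9 (0.596) and Trem2 (0.718) and mouse 05 in Plin4 (0.632), and mouse 22 was lowest in Tap1 (0.591) and Irgm1 (0.607).

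The response of microglia differed from that of another preparation by an interaction contrast (edgeR) for the following genes. Relative to homogenate it was larger for Ddit4 (1.25), Sorl1 (0.87), Mxd1 (1.24), Vldlr (1.34), Hecw2 (1.66), Rnf144a (1.61), S100a6 (2.61) and Slc2a3 (1.55). It was lower for Hsph1 (-1.22), Gimap6 (-1.30), Adamts1 (-1.04), Sepp1 (-0.78), Creg1 (-0.61), Bag3 (-1.05), Sparc (-0.89), Arrdc4 (-0.87), Abcb4 (-0.83), Pmp22 (-0.85) and Rgs3 (-0.81). Relative to astrocytes it was larger for Ddit4 (1.09), Mxd1 (1.05), Vldlr (1.27), Rnf144a (1.33), S100a6 (2.69) and Slc2a3 (1.28), and lower for Sepp1 (-0.71), Creg1 (-0.70) and Timp2 (-0.63). Sparc was also lower without the mouse as a block (-0.78), but with the mouse as a replicate block, in which the preparations are paired by mouse, the adjusted p was 0.0736 (edgeR). S100a6 is also a neutrophil gene whose slope on the index was called.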

How the results depend on the processing

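In CIE against control, 249 rises and 124 falls became 415 and 268 with DESeq2, 499 and 276 when the range of mouse numbers was a term, 733 and 533 with voom, 514 and 213 without mice 03 to 08, and 72 and 15 without the 4 CIE mice of highest index, a setting chosen after seeing the data. At equal index, 56 rises and 11 falls became 124 and 62 with DESeq2, 145 and 22 with the range as a term, 33 and 5 with an index of no granule genes, 92 and 25 with granule genes alone, and 17 and 3 without the 4 mice. Without mice 03 to 08 the rises were 153, and with no filter the falls were 6. For the slope on the index, 142 rises and 17 falls became 226 and 168 with DESeq2, 383 and 38 with no filter, and 0 and 0 without the 4 mice (edgeR, 271 and 180 at an unadjusted p under 0.05, DESeq2 not run). Leaving out these 4 takes away most of the spread of the index, so little is left to fit a slope on. The falls alone became 6 with the range as a term, 35 with the log2 sum as index, 87 with no granule genes, 5 with granule genes and 3 without mice 03 to 08. Leaving out 1 mouse gave 127 (without control 20) to 436 (without CIE 08) rises and 55 to 248 falls, at equal index 16 (without control 35) to 76 (without control 22) and 1 to 19, and for the slope 15 (without CIE 41) to 218 (without control 03) and 1 (without CIE 08) to 186 (without control 03). The causes were not tested.

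For the paired contrasts with the mouse as a replicate block, the counts against homogenate were 66 and 47 and against astrocytes 59 and 26 (17 without the block), and Sparc lost its call against astrocytes. With no filter 50 genes were higher against homogenate and 30 against astrocytes, and with DESeq2 141 and 94, and 129 and 49. Without the 4 mice, which were picked by the index genes, Ngp had -0.20, Ltf -0.20 and Cd177 -0.11 in place of a rise. The CIE minus control difference in total counts changed sign to -12720 without mice 03 to 08 and -54513 without the 4 mice, as did ambiguous reads (-0.0266 percentage points), multiply aligned reads (4.12 per 100 counts) and the share of the top 50 genes (1.31 percentage points) without the 4 mice. Leaving out 1 mouse, these differences ran from -252551 to 511018 counts, 0.00277 to 0.0319 points, -14.6 to 0.385 per 100 counts and -2.22 to 0.362 points, reads in no gene from 1.38 to 5.52 points and genes detected from 163.8 to 435.6. Genes below a few CPM, such as Cxcr2 and Irg1, are limited by depth.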
